A study of Mus musculus with 10 samples.

Results

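Transcripts of 10 genes that mark macrophages or shape their supply were followed through RNA sequencing of 10 mouse prostate tumours. The genes were taken from a list by symbol: Adgre1, Csf1r, Cd68, Mrc1, C1qa, C1qb, C1qc, Csf1, Cd163 and Lyz2. All 10 were found among the 47069 gene IDs of the count tables, and all 10 passed the filter on low counts that left 17644 genes for testing. The tumours were orthografts, grown from cells of a mouse prostate cancer line placed in an anterior prostate lobe of male CD-1 Nude mice. CD-1 Nude mice lack a normal thymus and are short of mature T cells, while they keep macrophages. Each line came from the prostate tumour of a donor mouse: P1 from a donor of 14 months (n = 3 tumours), CP1 from a donor of 6 months (n = 3) and CP2 from a donor of 8 months (n = 4). The CP donors carried Ctnnb1pc(ex3)Δ/+, a deletion of exon 3 of the beta-catenin gene that stabilises the protein, and the P1 donor did not. Line, genotype and donor age changed together and cannot be told apart, and each line stands for 1 donor tumour. The question followed here is whether levels of macrophage genes differed between tumours of the 3 lines.

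Tissue macrophages are recognised by membrane proteins such as the adhesion receptor F4/80 (Adgre1), the CSF1 receptor (Csf1r), the lysosomal glycoprotein CD68 (Cd68), the mannose receptor (Mrc1) and the haemoglobin scavenger receptor CD163 (Cd163). They live on the growth factor CSF1 (Csf1), which macrophages need for survival but which stromal and epithelial cells can also make. Macrophages are also a main source of C1q, the recognition molecule that starts the classical complement pathway and tags dying cells, and of lysozyme (Lyz2), which cuts bacterial cell walls.

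Libraries held 18800912 to 37180721 counts, with the 4 CP2 libraries the shallowest, and 3 counts corresponded to 0.0924 to 0.154 CPM (counts scaled to library size, with TMM factors). The labels of CP2 replicate 1 disagree, since the title names CP1 and the tissue and source entries name CP2. It was kept in CP2, and its log2 CPM over genes correlated at a mean r of 0.989 with CP2, 0.927 with CP1 and 0.862 with P1 tumours. In P1 tumours 1.83% to 15.1% of counts fell on seminal vesicle transcripts, and at most 0.170% elsewhere, with the most in P1 replicates 1 and 2. Urothelial transcripts reached 0.226% in CP1, against 0.00755% or less in P1 and CP2, and were most abundant in CP1 replicates 2 and 3. Results that move without these libraries are given with the values that remain. Whether these transcripts came from tissue beside the tumour or from tumour cells, and their part in the values of the 10 genes, was not tested.

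Csf1 was the 1 gene of the 10 whose level separated all 3 lines, lowest in P1 and highest in CP2. Cd163 was higher in CP1 than in P1. The other 8 genes, among them all 3 C1q chains, were not called in any comparison between lines. Their biological coefficients of variation within lines were 0.245 to 0.302, at the 66.4th to 78.0th percentile of all genes, whose median was 0.19. For genes this variable, the lack of a call does not show equal levels. Genes were tested by edgeR's quasi-likelihood test with Benjamini-Hochberg adjustment over all 17644 genes and called at an adjusted p below 0.05, and every adjusted p below comes from that fit unless another setting is named. In CP1 versus P1, 2 of the 10 genes were called (both higher), against 44.8% of all genes tested. In CP2 versus P1, 1 of 10 was called (higher), against 56.7% of all genes. In CP2 versus CP1, 1 of 10 was called (higher), against 43.3% of all genes. The median log2 fold change of the 10 genes was -0.05, 0.08 and 0.25 in these comparisons, beside -0.01, 0.002 and -0.005 for all genes. The first and second comparison share the P1 tumours. Tumours of the lines compared did not overlap for 2 of the 10 genes in CP1 versus P1 (Csf1 and Cd163), against 50.8% of all genes. The same held for 2 in CP2 versus P1 (Csf1 and Mrc1), against 60.1%, and for 2 in CP2 versus CP1 (Csf1 and Cd163), against 52.3%. In these bulk samples, fewer macrophages and less RNA per macrophage cannot be told apart.

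**Figure D1:**
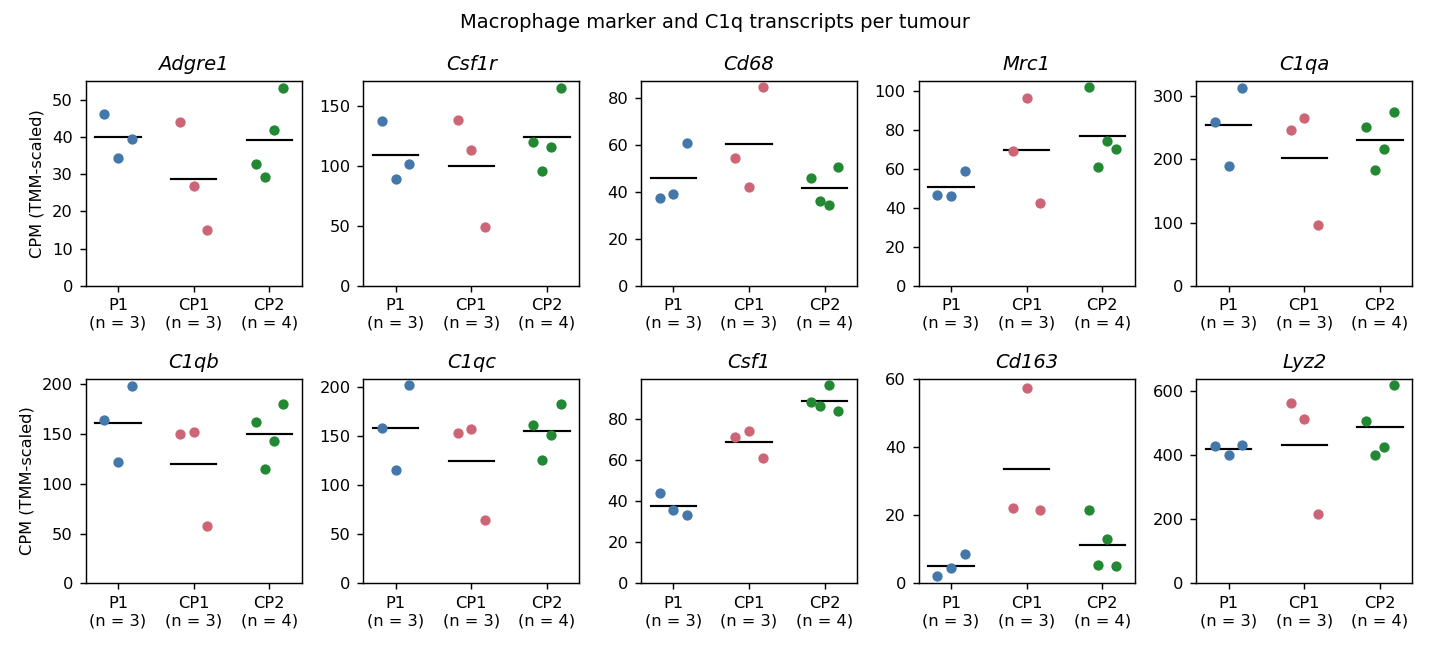
Level of each of the 10 genes in each tumour, in CPM on a linear axis that starts at 0 (points, tumours; bars, line means; P1 n = 3, CP1 n = 3, CP2 n = 4). Csf1 rises from 33.3 to 43.8 in P1 to 84.1 to 96.4 in CP2 without overlap, while for the C1q chains the CP1 replicate 3 tumour lies below all the others.

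CSF1 is the ligand that keeps macrophages alive and draws them to differentiate. Csf1 (ENSMUSG00000014599) lies on the minus strand of chromosome 3 at 107741048 to 107760469 (GRCm38). Its level was 43.8, 35.5 and 33.3 CPM in P1 replicates 1, 2 and 3. It was 71.2, 74.1 and 61.1 CPM in CP1 replicates 1, 2 and 3, and 88.3, 86.5, 96.4 and 84.1 CPM in CP2 replicates 1 to 4. Every CP1 tumour stood above every P1 tumour, and every CP2 tumour above every CP1 tumour. Line means were 37.5 ± 5.49 (SD, n = 3), 68.8 ± 6.82 (n = 3) and 88.8 ± 5.35 CPM (n = 4). Csf1 rose by 0.88 ± 0.12 (log2 fold change ± SE) in CP1 versus P1, with an adjusted p of 2.363e-04. The rise in CP2 versus P1 was 1.24 ± 0.11, with an adjusted p of 1.396e-05. CP2 exceeded CP1 by 0.37 ± 0.11, with an adjusted p of 0.023. This last call was the least firm: the adjusted p was 0.0945 without CP1 replicate 3, 0.0623 without CP2 replicate 3, 0.0608 with no filter on low counts and 0.212 without CP1 replicates 2 and 3. The Csf1 counts varied little between tumours of a line: their biological coefficient of variation in the fit was 0.123, at the 16.4th percentile of all genes and below their median of 0.19.

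The CSF1 receptor is the kinase through which CSF1 and interleukin 34 act on macrophages. Csf1r (ENSMUSG00000024621) stood at 138, 89.0 and 102 CPM in P1 replicates 1, 2 and 3. It stood at 139, 113 and 49.0 CPM in the CP1 tumours and at 120.3, 96.3, 116 and 165 CPM in the CP2 tumours. The lines overlapped throughout, and CP1 replicate 3 was the lowest tumour of all. The log2 fold change was -0.13 (95% interval -0.89 to 0.63) in CP1 versus P1 and 0.18 (-0.53 to 0.90) in CP2 versus P1, neither called. The ratio of Csf1 to Csf1r in CPM was 0.317 to 0.399 in P1 and 0.509 to 0.898 in CP2. In CP1 replicates 1, 2 and 3 it was 0.513, 0.654 and 1.25. The last value came with the low Csf1r of that tumour, whose Csf1, at 61.1 CPM, was the lowest of the CP1 tumours. Csf1r shares 873 exonic bases with Hmgxb3 on the opposite strand, which had 11085 counts over all tumours. The use of strand in counting is unknown here, so reads from the shared bases are uncertain.

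Genes of the CSF1 receptor axis and of other myeloid growth factors were called in both directions, at shares near or below those of all genes. Of 9 such genes tested, 1 rose and 2 fell in CP1 versus P1, where 22.4% of all genes were called higher and 22.4% lower. In CP2 versus P1, 2 rose and 2 fell, against 28.3% and 28.4% of all genes, and in CP2 versus CP1, 2 rose and 2 fell, against 21.3% and 21.9%. Without P1 replicates 1 and 2 the count called in CP2 versus P1 dropped from 4 to 1, and it was also 1 on 4 tumours of P1 and CP2 whose sample titles share a number (19 or 21). Il34, the second ligand of the CSF1 receptor, was at 14.0, 11.04 and 13.3 CPM across the P1 tumours, 9.12, 7.53 and 10.7 CPM across CP1 and 26.2, 25.4, 30.4 and 23.7 CPM across CP2. All 4 CP2 tumours lay above the other 6. Il34 rose by 1.05 ± 0.15 in CP2 versus P1 (adjusted p 2.647e-04) and by 1.53 ± 0.16 in CP2 versus CP1 (adjusted p 6.372e-05). Its fall by 0.48 in CP1 versus P1 (adjusted p 0.0331) was no longer called under 10 of the alternatives, among them leaving out P1 replicate 1 or 3, CP1 replicate 1 or 2, or CP2 replicate 2, with values from -0.57 to -0.36 there. Kitl, the ligand of the KIT receptor, rose by 2.18 ± 0.24 in CP1 versus P1 (adjusted p 6.180e-05). Tyrobp, the adaptor of many myeloid receptors, stood at 47.8, 39.7 and 52.4 CPM across the P1 tumours, 47.1, 45.8 and 19.7 CPM across CP1 and 48.9, 37.8, 45.5 and 48.0 CPM across CP2, and was not called in any comparison.

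Adgre1 (ENSMUSG00000004730, chromosome 17, 57358691 to 57483527, plus strand) encodes F4/80, the classical marker of mouse macrophages. It was at 46.4, 34.4 and 39.6 CPM across the P1 tumours, 44.1, 26.8 and 15.1 CPM across CP1 and 32.8, 29.3, 41.9 and 53.3 CPM across CP2. The CP1 tumours spanned most of the range, with replicate 1 near the top and replicate 3 at the bottom. The log2 fold change was -0.49 (-1.26 to 0.28) in CP1 versus P1 and -0.03 (-0.75 to 0.69) in CP2 versus P1. Adgre1 passed the threshold when CP1 replicate 1 was left out, at -0.95 in CP1 versus P1 (adjusted p 0.0319) and 0.91 in CP2 versus CP1 (adjusted p 0.0354).

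Cd68 (ENSMUSG00000018774, chromosome 11, 69664213 to 69666153, minus strand) encodes a membrane protein of lysosomes and endosomes. It was at 37.3, 39.0 and 60.8 CPM across the P1 tumours, 54.5, 42.2 and 84.7 CPM across CP1 and 45.7, 36.2, 34.5 and 50.4 CPM across CP2. CP1 replicate 3, the lowest tumour for 7 of the 10 genes, was the highest for Cd68. Cd68 differed by 0.40 (-0.21 to 1.02) in CP1 versus P1, by -0.13 (-0.71 to 0.44) in CP2 versus P1 and by -0.54 (-1.11 to 0.04) in CP2 versus CP1, none of them called. Without CP1 replicate 2 the last of these was -0.74 and called, with an adjusted p of 0.0477. The ratio of Cd68 to Adgre1 in CPM was 0.804 to 1.54 in P1, 0.823 to 1.40 in CP2, and 1.24, 1.58 and 5.62 in CP1 replicates 1, 2 and 3.

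Mrc1 (ENSMUSG00000026712, chromosome 2, 14229392 to 14332057, plus strand) encodes the mannose receptor, which takes up glycoproteins. It was at 46.7, 46.3 and 58.8 CPM across the P1 tumours, 69.3, 96.4 and 42.5 CPM across CP1 and 102, 60.9, 74.1 and 70.1 CPM across CP2. All 4 CP2 tumours lay above the 3 P1 tumours, while the CP1 tumours lay on both sides of them. Mrc1 differed by 0.60 ± 0.26 in CP2 versus P1 (95% interval 0.02 to 1.18), with an adjusted p of 0.0727 that missed the threshold. The adjusted p passed it when CP1 replicate 2 (0.0386) or CP1 replicate 3 (0.0261) or both (0.0225) were left out, when only the 2 lines were fitted (0.0255) and with library totals alone (0.0343). In CP1 versus P1 the value was 0.46 (-0.16 to 1.07), and 0.72 with an adjusted p of 0.0339 without CP1 replicate 3.

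Cd163 (ENSMUSG00000008845, chromosome 6, 124304656 to 124330527, plus strand) encodes a scavenger receptor for haptoglobin and haemoglobin. It was at 2.22, 4.43 and 8.62 CPM across the P1 tumours, 22.1, 57.3 and 21.6 CPM across CP1 and 21.4, 5.40, 13.1 and 4.98 CPM across CP2. The 3 CP1 tumours were the highest of all 10, with CP2 replicate 1 close below them, and CP2 overlapped P1. Cd163 rose by 2.73 ± 0.69 in CP1 versus P1, with an adjusted p of 0.0090. The call was lost with 1 tumour left in an arm, at 1.94 (adjusted p 0.159) without P1 replicates 1 and 2 and at 2.13 (adjusted p 0.0889) without CP1 replicates 2 and 3. It held in all 10 fits that left out a single tumour, between 2.11 and 3.33. The value was 1.144 (-0.28 to 2.57) in CP2 versus P1, with an adjusted p of 0.15. In CP2 versus CP1 it was -1.59 ± 0.60, with an adjusted p of 0.0569. That adjusted p came under the threshold with DESeq2 (0.0176), with no filter on low counts (0.0464), with the 2 lines alone (0.0482), and without P1 replicate 1 (0.0465), P1 replicate 3 (0.0478) or CP2 replicate 1 (0.0243). Cd163 was also the most variable of the 10 genes, with a biological coefficient of variation of 0.549, at the 95.3th percentile.

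**Figure D2:**
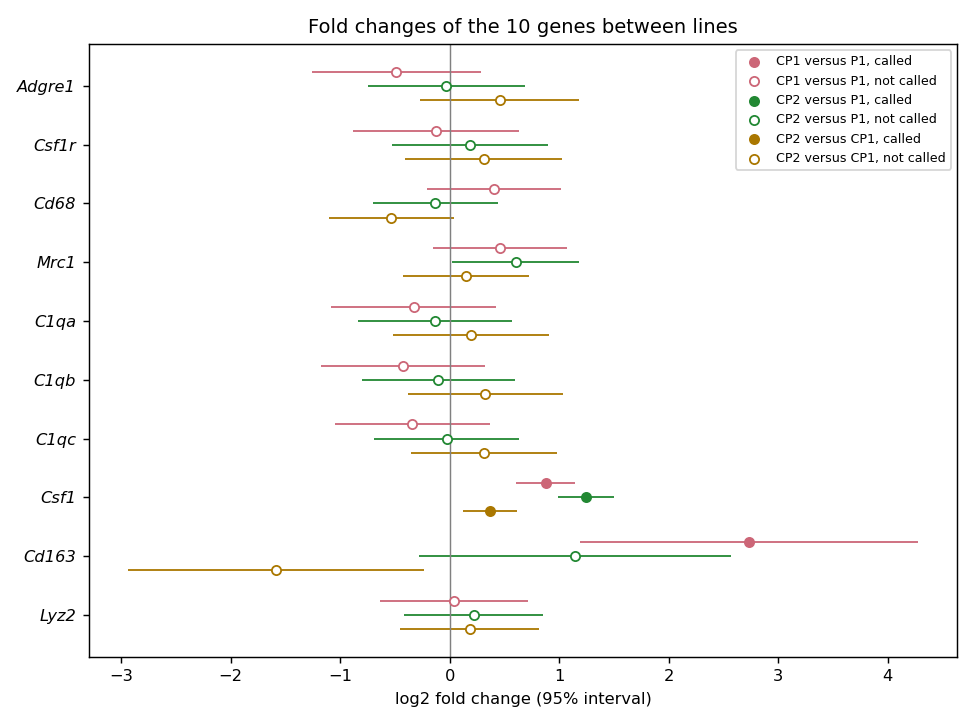
Log2 fold changes of the 10 genes in the 3 comparisons, with 95% intervals from the fit (filled points, adjusted p below 0.05; open points, not called). Filled points are the 3 of Csf1 (0.88, 1.24 and 0.37) and Cd163 in CP1 versus P1 (2.73), and most of the remaining intervals lie on both sides of 0.

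C1q is assembled from A, B and C chains, whose genes lie side by side on the minus strand of chromosome 4. C1qa (ENSMUSG00000036887) spans 136895917 to 136898803, C1qc (ENSMUSG00000036896) 136889804 to 136893065 and C1qb (ENSMUSG00000036905) 136880129 to 136886187 (GRCm38). Promoter sequence is shown for C1qb and C1qc, which moved together across tumours, and, beside them, for Csf1, the gene that separated the lines. The windows lie upstream of the annotated starts, at chr4:136886201-136886450 for C1qb, chr4:136893066-136893164 for C1qc and chr3:107760470-107760719 for Csf1 (RefSeq, GRCm38.p6). The C1qc window holds 99 bases, since the RefSeq start lies downstream of the GENCODE start and the stretch between them was left out. All 3 windows are on the minus strand and are written 5′ to 3′. Capitals mark matches to AGGAAG or its reverse complement CTTCCT, the core bound by ETS factors such as PU.1, a regulator of myeloid genes.
C1qb: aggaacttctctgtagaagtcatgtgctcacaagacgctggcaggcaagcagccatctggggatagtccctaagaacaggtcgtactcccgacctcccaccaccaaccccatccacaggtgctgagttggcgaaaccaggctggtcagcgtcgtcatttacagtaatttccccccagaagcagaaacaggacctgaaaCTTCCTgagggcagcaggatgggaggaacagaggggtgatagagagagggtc
C1qc: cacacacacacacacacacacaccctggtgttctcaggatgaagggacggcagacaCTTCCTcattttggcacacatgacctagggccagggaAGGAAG
Csf1: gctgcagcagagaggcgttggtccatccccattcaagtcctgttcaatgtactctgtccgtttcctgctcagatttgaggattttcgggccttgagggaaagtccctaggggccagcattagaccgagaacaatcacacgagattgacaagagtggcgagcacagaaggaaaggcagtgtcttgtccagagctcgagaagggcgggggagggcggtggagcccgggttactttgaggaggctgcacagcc

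The motif AGGAAG, on either strand, occurred 1 time in the C1qb window and 2 times in that of C1qc, and 0 times in that of Csf1. The longer motif GAGGAAGT, which contains AGGAAG, occurred 1 time in the C1qc window, as its reverse complement ACTTCCTC. Among all 32851 RefSeq promoters, 29.5% held AGGAAG and 2.44% held GAGGAAGT in the 250 bases before the start. In the 99 bases of each promoter that correspond to the C1qc window, 12% held AGGAAG and 0.776% held GAGGAAGT. A promoter was read by symbol for 7 of the 10 genes, and none for Adgre1, Csf1r and C1qa. Besides the C1q genes, Mrc1 held AGGAAG 3 times and Lyz2 2 times in the 250 bases, and Cd68 and Cd163 0 times. A match is a run of letters and says nothing of binding in these tumours.

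C1qa was at 259, 190.2 and 313 CPM across the P1 tumours, 246, 265 and 95.4 CPM across CP1 and 251, 184, 216 and 275 CPM across CP2. C1qb was at 164, 121 and 198 CPM across the P1 tumours, 150.1, 152 and 57.2 CPM across CP1 and 162, 115, 143 and 179.7 CPM across CP2. C1qc was at 158, 115 and 201 CPM across the P1 tumours, 153, 157 and 64.3 CPM across CP1 and 160.6, 126, 151 and 182 CPM across CP2. For each of the 3 chains P1 replicate 3 was the highest tumour and CP1 replicate 3 the lowest, and the other 8 tumours of the 3 lines overlapped. None was called. In CP1 versus P1 the log2 fold changes were -0.33 (-1.09 to 0.43) for C1qa, -0.43 (-1.18 to 0.32) for C1qb and -0.34 (-1.05 to 0.36) for C1qc. In CP2 versus P1 they were -0.14 (-0.84 to 0.57), -0.10 (-0.80 to 0.60) and -0.03 (-0.69 to 0.63). Over both comparisons the intervals ran from -1.18 to 0.63, and differences inside each interval are not excluded with this number of tumours. Without CP1 replicate 3 the values in CP1 versus P1 were 0.012 for C1qa, -0.088 for C1qb and -0.026 for C1qc.

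Per kilobase of exon, the order of the chains was the same in all 10 tumours, with C1qa highest and C1qc lowest. The ratio of C1qa to C1qb, in CPM per kilobase, lay between 1.58 and 1.82 in all tumours. The ratio of C1qc to C1qb lay between 0.534 and 0.632. Exon lengths are unions over annotated transcripts (1040 bp for C1qa, 1088 bp for C1qb and 1931 bp for C1qc), so the ratio depends on which transcripts are used. In CP1 replicate 3, where the level of each chain was less than that in any other tumour, the ratios were 1.74 and 0.632.

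Lyz2 (ENSMUSG00000069516, chromosome 10, 117277331 to 117282321, minus strand) encodes the lysozyme of macrophages and neutrophils. Its neighbour Lyz1 (117287797 to 117292868) encodes the lysozyme of Paneth cells and is a close copy. Their coding sequences are each 444 bases long, differ at 22 positions (95% identity) and share an identical run of 118 bases. The first 120 coding bases (GENCODE M21) are shown, since reads are told apart only where the copies differ, and capitals mark the 11 differing bases.
Lyz2: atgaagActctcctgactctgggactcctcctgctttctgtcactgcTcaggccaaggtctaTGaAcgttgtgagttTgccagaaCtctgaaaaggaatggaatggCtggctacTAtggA
Lyz1: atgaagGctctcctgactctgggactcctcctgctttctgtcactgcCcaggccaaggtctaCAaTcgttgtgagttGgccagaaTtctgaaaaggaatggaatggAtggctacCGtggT

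Lyz2 was at 428, 399 and 432 CPM across the P1 tumours, 563, 513 and 216 CPM across CP1 and 508, 400.1, 426 and 618 CPM across CP2. The lines overlapped, with CP1 replicate 3 the lowest tumour by a wide gap. Lyz2 differed by 0.04 (-0.64 to 0.72) in CP1 versus P1 and by 0.22 (-0.42 to 0.86) in CP2 versus P1, neither called. Lyz1 was between 0.284 and 4.28 CPM in the 10 tumours and was not called either. Reads that match both copies are uncertain, but the level of Lyz1 was under 5 CPM wherever Lyz2 was over 200.

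Per kilobase of exon the 10 genes spread widely. In P1 the mean level was 319 ± 13.7 CPM per kilobase for Lyz2 (SD, n = 3), 244 ± 59.2 for C1qa, 148 ± 35.4 for C1qb and 81.9 ± 22.3 for C1qc. Below them came Cd68 at 36.4 ± 10.4, Csf1r at 18.99 ± 4.39, Adgre1 at 12.4 ± 1.85, Mrc1 at 7.94 ± 1.12, Csf1 at 7.11 ± 1.04 and Cd163 at 0.932 ± 0.595 CPM per kilobase. Neighbours in this order whose means lay within the larger of their SDs were Mrc1 and Csf1. By their means, the order of the upper 6 genes, from Lyz2 to Csf1r, was the same in CP1 and CP2. In CP1 (n = 3), however, neighbours from Lyz2 to Cd68 lay within the larger of their SDs. The CP1 means were 327 ± 143 for Lyz2, 194 ± 89.3 for C1qa, 110.1 ± 49.8 for C1qb, 64.5 ± 27.1 for C1qc and 48.1 ± 17.4 for Cd68. By its mean, Csf1 stood above Mrc1 and Adgre1 in both CP lines, at 13.0 ± 1.29 in CP1 (n = 3) and 16.8 ± 1.01 CPM per kilobase in CP2 (n = 4). Mrc1 was at 10.9 ± 4.23 and Adgre1 at 8.84 ± 4.51 in CP1, both within the larger SD of Csf1. In CP2 they were at 12.1 ± 2.78 and 12.1 ± 3.31, farther from Csf1 than these SDs. Cd163 was the lowest gene in all 3 lines.

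The genes differed in how they followed each other from tumour to tumour. Likeness was measured as Pearson's r between the deviations of log2(CPM + 0.5) from the line mean over the 10 tumours, as a description. The points share their libraries, and CP1 replicate 3 lies far from the rest. C1qa and C1qb had r = 0.998, C1qa and C1qc 0.993, and C1qb and C1qc 0.994, with Spearman's rho of 1 for each pair. Without CP1 replicate 3 these r were 0.992, 0.983 and 0.983. Csf1r went with Adgre1 (r = 0.936, rho = 0.903) and with Lyz2 (r = 0.941, rho = 0.855), at 0.863 and 0.807 without CP1 replicate 3. With the 2 tumours farthest in Csf1r or Adgre1 left out, r was 0.819 for Csf1r with Lyz2 and 0.846 for Adgre1 with Csf1r. Other pairs rested more on that 1 tumour: C1qa and Adgre1 went from 0.78 to 0.429, and Mrc1 and Lyz2 from 0.723 to 0.185. Mrc1 and Cd163 had r = 0.762 and 0.89 without it. Cd68 and Csf1 ran in opposite directions, with r = -0.799, and -0.707 without CP1 replicate 3. The negative r of Cd68 with the other 8 genes rested on that tumour: without it all 8 were positive, going from -0.281 to 0.725 for C1qb, from -0.382 to 0.679 for Lyz2 and from -0.293 to 0.377 for Adgre1. The r of Lyz2 with the C1q chains was 0.902 to 0.935, and 0.633 to 0.733 without it.

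**Figure D3:**
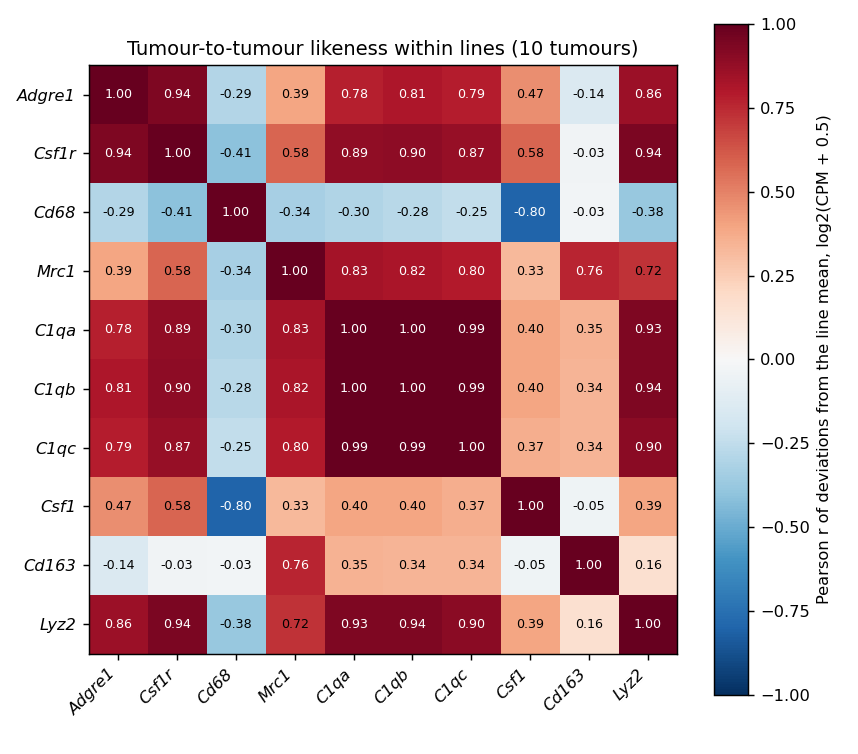
Pearson's r between pairs of the 10 genes, from deviations of log2(CPM + 0.5) from the line mean over 10 tumours (colour and printed value). The C1q chains form a block at 0.99 or above with Lyz2 at 0.90 or above beside it, while Cd68 is negative with every other gene and reaches -0.80 with Csf1. Without CP1 replicate 3, which is included here, the r of Cd68 was positive with all of them but Csf1.

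Among all genes tested outside the 10, the genes most like the mean of the 3 C1q chains in this measure were Cyba (r = 0.985), a subunit of the phagocyte NADPH oxidase, P3h1 (0.981), Faap20 (0.977) and Tyrobp (0.977). They were followed by Laptm5 (0.971), a lysosomal membrane protein of blood cells, the Fc receptor gene Fcgr3 (0.966), Cd80 (0.963), Fermt3 (0.962), Ms4a6d (0.953) and Apoe (0.951). Of the genes tested, 0.278% had an r above 0.9 with the C1q mean. Between lines, Cyba fell by 1.87 in CP1 versus P1 (adjusted p 4.181e-05) and by 1.86 in CP2 versus P1 (adjusted p 1.602e-05). The genes most like Csf1 were Dzip1 (r = 0.98), Rmnd5b (0.976), Pbx3 (0.966), Ephx3 (0.96) and Ppp2r1b (0.955), and then Amigo3, Chsy3, Gm5577, Dclk1 and Calhm5 (0.949 to 0.934). None of the 10 was on a macrophage list, and 0.215% of genes had an r above 0.9 with Csf1.

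A list of 28 other macrophage and monocyte markers moved in both directions. In CP1 versus P1, 5 rose, 2 fell and 21 were not called, and in CP2 versus P1, 8 rose, 2 fell and 18 were not called. Shares of all genes were 22.4% higher and 22.4% lower in the first comparison, and 28.3% higher and 28.4% lower in the second. The list's median log2 fold change was -0.30 and -0.09. In CP2 versus CP1, 3 rose and 3 fell, with a median of 0.32, against 21.3% and 21.9% of all genes. Without P1 replicates 1 and 2 the number called went from 7 to 4 in CP1 versus P1 and from 10 to 6 in CP2 versus P1, and without CP1 replicate 1 the first rose to 13. The summed level of the list was 2042 to 2865 CPM in P1, 1886 to 2635 CPM in CP1 and 1977 to 2799 CPM in CP2, and the sum over the 10 genes was 1074 to 1448, 706.6 to 1512 and 1139 to 1683 CPM. Both ranges overlapped between all lines.

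Vsig4, a complement receptor of resident macrophages, was at 0.0616, 0.405 and 0.183 CPM across the P1 tumours, 3.78, 7.18 and 4.46 CPM across CP1 and 6.37, 1.96, 4.06 and 2.56 CPM across CP2. Every CP tumour stood above every P1 tumour. Vsig4 rose by 4.54 ± 0.64 in CP1 versus P1 (adjusted p 3.092e-04) and by 4.08 ± 0.63 in CP2 versus P1 (adjusted p 3.635e-04). The size of these rises is uncertain, since the P1 levels were near the floor. The value of P1 replicate 1 was below the 0.0924 CPM that 3 counts make in that library. Leaving out 1 tumour gave 4.07 to 5.36 in CP1 versus P1 and 3.61 to 4.90 in CP2 versus P1. Gpnmb, a glycoprotein of lysosome-rich macrophages that melanocytes and some tumour cells also make, was at 21.8, 30.6 and 67.6 CPM across the P1 tumours, 109, 296 and 1019 CPM across CP1 and 468, 672, 188.5 and 386 CPM across CP2. It rose by 3.57 ± 0.82 in CP1 versus P1 (adjusted p 0.0053) and by 3.42 ± 0.79 in CP2 versus P1 (adjusted p 0.0043). The calls were lost without P1 replicates 1 and 2 (2.79, adjusted p 0.125, and 2.64, adjusted p 0.12), and the first also without CP1 replicates 2 and 3 (1.45, adjusted p 0.146). CP1 replicate 3 was the highest tumour for Gpnmb, as for Cd68.

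Cd14, the co-receptor for bacterial lipopolysaccharide, which epithelial cells can make as well, went the other way. It was at 283, 311 and 327 CPM across the P1 tumours, 55.8, 80.0 and 55.8 CPM across CP1 and 54.8, 52.3, 57.0 and 62.9 CPM across CP2. Every P1 tumour exceeded every CP tumour. Cd14 fell by 2.27 ± 0.15 in CP1 versus P1 (adjusted p 3.444e-06) and by 2.44 ± 0.14 in CP2 versus P1 (adjusted p 8.667e-07). Msr1, a scavenger receptor for modified lipoproteins, rose by 1.08 ± 0.15 in CP2 versus CP1 (adjusted p 3.537e-04). The most abundant marker of the list not called was Apoe, the lipid carrier, with 1752, 1202 and 1884 CPM across the P1 tumours, 1613, 1701 and 523 CPM across CP1 and 1601, 908, 1050.0 and 1185 CPM across CP2.

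**Figure D4:**
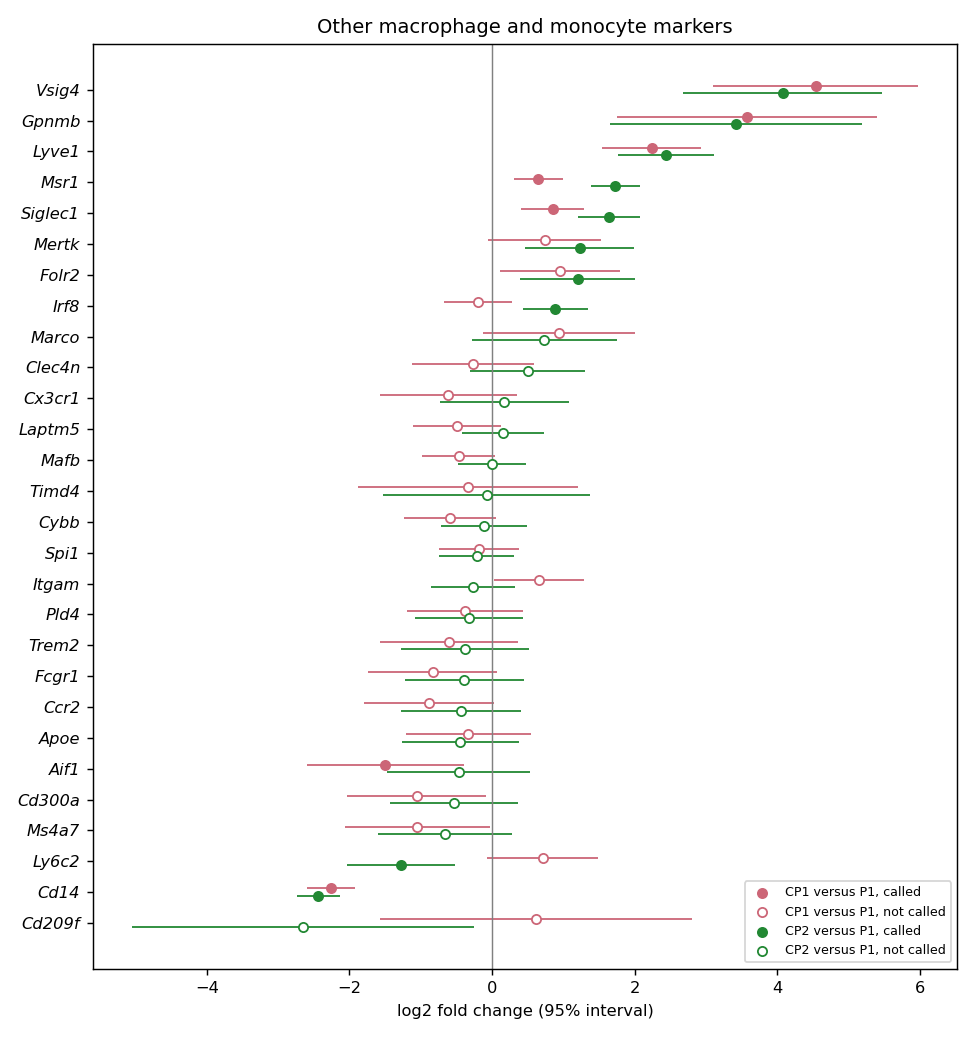
Log2 fold changes with 95% intervals of 28 other macrophage and monocyte markers in CP1 versus P1 and CP2 versus P1, ordered by the second (filled points, adjusted p below 0.05; open points, not called). Vsig4 is at the top at 4.54 and 4.08, Cd14 near the bottom at -2.27 and -2.44, and most markers between them are open points.

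Genes for the uptake and the breakdown of material, tasks of macrophages, were called higher more often than lower in CP1 versus P1. Of 15 scavenger and efferocytosis receptors and ligands, 7 rose and 0 fell there, against 22.4% of all genes in each direction. The counts for CP2 versus P1 were 5 higher and 2 lower, with the higher share close to the 28.3% of all genes. In CP2 versus CP1, 3 rose and 6 fell, against 21.3% and 21.9%, and the count of 9 became 5 without CP1 replicate 2 or without CP1 replicates 2 and 3. Havcr2 (TIM-3), a phosphatidylserine receptor, rose by 2.37 ± 0.28 in CP1 versus P1 (adjusted p 8.943e-05) and by 3.10 ± 0.28 in CP2 versus P1 (adjusted p 1.137e-05). Axl, a receptor kinase that takes up dying cells and that tumour cells also make, rose by 2.25 ± 0.23 and 2.26 ± 0.23 in the same comparisons (adjusted p 4.372e-05 and 2.310e-05). Of 15 lysosomal proteins, 9 rose and 1 fell in CP1 versus P1. In CP2 versus P1, 5 rose and 1 fell, a count of 6 that became 3 without CP2 replicate 2 or without CP2 replicate 4, and 2 on the 4 tumours that share a title number. Of the lysosomal genes, 2 rose and 7 fell in CP2 versus CP1. Npc2, a lysosomal cholesterol carrier, rose by 1.29 ± 0.15 in CP1 versus P1 (adjusted p 8.001e-05). These genes are widely expressed, and which cells their transcripts came from was not tested.

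Among genes that call monocytes into tissue, Ccl7 and Ccl8 were highest in the 3 CP1 tumours. Of 14 chemoattractants and receptors, 3 rose and 2 fell in CP1 versus P1, against 22.4% of all genes in each direction. The counts in CP2 versus P1 were 5 higher and 3 lower, against 28.3% and 28.4%, a count of 8 that became 5 without CP2 replicate 3 or without P1 replicates 1 and 2. Between the CP lines, 6 rose and 4 fell in CP2 versus CP1, against 21.3% and 21.9%, a count of 10 that became 5 without CP1 replicates 2 and 3. Ccl7, a ligand of CCR2, was at 5.76, 6.27 and 10.9 CPM across the P1 tumours, 413, 127 and 290 CPM across CP1 and 6.12, 13.9, 10.5 and 11.7 CPM across CP2. The 3 CP1 tumours stood far above the other 7, which overlapped. Ccl7 rose by 5.18 ± 0.50 in CP1 versus P1 (adjusted p 2.666e-05) and fell by 4.71 ± 0.43 in CP2 versus CP1 (adjusted p 3.419e-05). Ccl8 rose by 3.88 ± 0.68 in CP1 versus P1 (adjusted p 0.0011), from 19.5 ± 12.1 to 287 ± 171 CPM (SD, n = 3 each). In CP2 it was at 2.95 ± 1.28 CPM (SD, n = 4) and fell by 2.71 ± 0.63 versus P1 (adjusted p 0.0044), a call lost on the 4 tumours that share a title number, at -1.63 with the number as a block and -2.04 without (adjusted p 0.106 each). Cx3cl1, the ligand of CX3CR1, fell by 2.37 ± 0.12 in CP1 versus P1 (adjusted p 8.708e-07) and by 2.54 ± 0.11 in CP2 versus P1 (adjusted p 2.982e-07).

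Complement genes other than C1q fell more often than they rose in the CP lines. Of 24 tested, 1 rose and 9 fell in CP1 versus P1 (median log2 fold change -0.16), and 1 rose and 14 fell in CP2 versus P1 (median -1.26). The lower share of all genes was 22.4% and 28.4% in these comparisons, and the higher share 22.4% and 28.3%. The count called in CP2 versus P1 was 15, and 9 on the 4 tumours of P1 and CP2 that share a title number. C3, the central component that all pathways cleave, was at 1058, 969 and 1046 CPM across the P1 tumours, 261, 171 and 177 CPM across CP1 and 72.5, 67.1, 192 and 69.5 CPM across CP2. C3 fell by 2.34 ± 0.40 in CP1 versus P1 (adjusted p 9.988e-04) and by 3.35 ± 0.38 in CP2 versus P1 (adjusted p 4.742e-05), and the first had an adjusted p of 0.0503 without CP1 replicates 2 and 3. C3 and factor B (Cfb) were selected after their values were seen. Cfb fell by 2.44 ± 0.23 (adjusted p 2.630e-05) and 2.08 ± 0.21 (adjusted p 2.396e-05).

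Factor I (Cfi), the protease that inactivates C3b, was at 67.4, 105 and 99.0 CPM across the P1 tumours, 3.11, 1.88 and 2.55 CPM across CP1 and 0.823, 0.491, 4.06 and 0.605 CPM across CP2. It fell by 5.17 ± 0.66 in CP1 versus P1 (adjusted p 1.548e-04) and by 5.90 ± 0.61 in CP2 versus P1 (adjusted p 2.991e-05). Clusterin (Clu), a secreted chaperone that restrains the terminal complex, was at 9827, 10910 and 7364 CPM across the P1 tumours, 203, 109 and 77.7 CPM across CP1 and 962, 586, 279 and 795 CPM across CP2. Clu fell by 6.17 ± 0.56 in CP1 versus P1 (adjusted p 1.926e-05) and by 3.84 ± 0.45 in CP2 versus P1 (adjusted p 6.120e-05). Masp1, a protease of the lectin pathway, was the 1 gene that rose in CP1 versus P1, by 3.83 ± 0.61 (adjusted p 6.003e-04), from 20.0, 3.52 and 3.91 CPM in P1 to 98.0, 128 and 166 CPM in CP1. Whether these genes differ from C1q in their change was not tested.

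**Figure D5:**
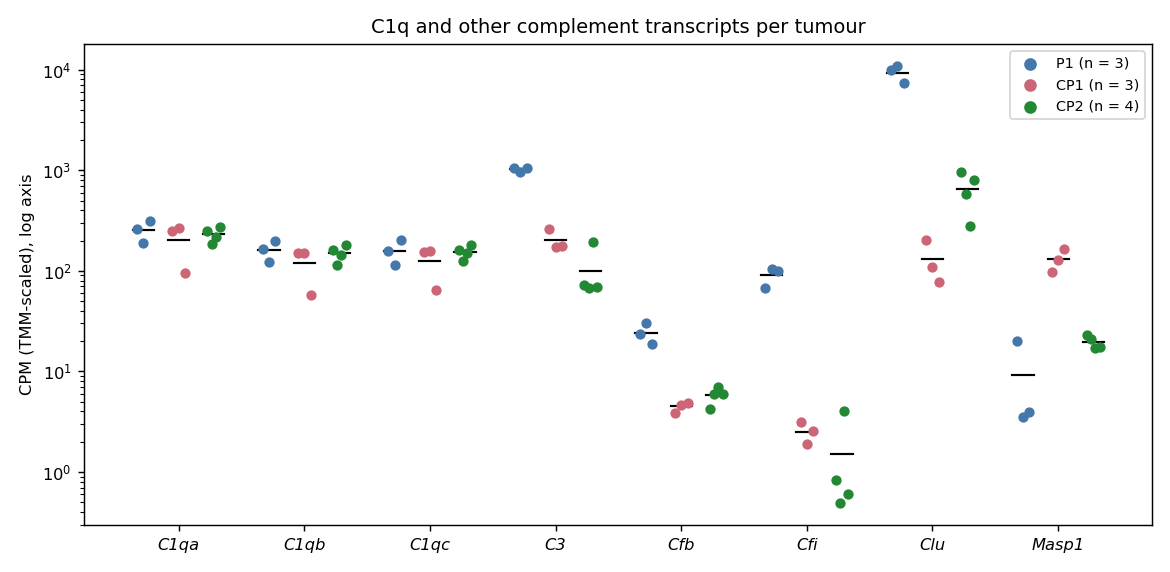
Levels of the C1q chains and of 5 other complement genes in each tumour, in CPM on a log axis (points, tumours; bars, line means; P1 n = 3, CP1 n = 3, CP2 n = 4). The C1q points of the 3 lines overlap between 57.2 and 313 CPM, whereas C3, Cfb, Cfi and Clu are higher in every P1 tumour than in any CP tumour and Masp1 is highest in CP1.

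Values for markers of other cells stand here beside the macrophage results. Of all genes, 22.4% were called higher and 22.4% lower in CP1 versus P1, and 28.3% and 28.4% in CP2 versus P1. Several of the counts below lie near these shares. Pan-leukocyte markers summed to 347 to 815 CPM in P1, 325 to 482 CPM in CP1 and 309 to 428 CPM in CP2, with 2 of 6 higher and 2 lower in CP1 versus P1, and 2 higher and 1 lower in CP2 versus P1. Without Cd52, the most abundant of them in P1 by its mean, these sums were 247 to 291, 313 to 469 and 297 to 404 CPM. Cd53, which stayed in these sums, was itself at 29.3 to 32.7 CPM in P1, 122 to 265 CPM in CP1 and 59.9 to 88.95 CPM in CP2. The markers called in CP1 versus P1 were Cd53 and Itgb2 (higher) and Cd52 and Lcp1 (lower), so the sums depend on which genes enter. Neutrophil markers summed to 327 to 736 CPM in P1, 16.2 to 116 CPM in CP1 and 11.7 to 104 CPM in CP2, with 3 of 10 higher and 1 lower in CP1 versus P1, and 0 higher and 3 lower in CP2 versus P1. Ltf (lactoferrin), which glandular epithelium also makes, was at 289 to 716 CPM in P1, and without it the neutrophil sums were 19.5 to 38.7, 15.4 to 103 and 8.59 to 17.2 CPM. The neutrophil markers called higher in CP1 versus P1 were Cxcr2, Ly6g and Mmp8, and the list's median log2 fold change was 1.03. Cd52, Cd53 and Ltf were singled out after their values were seen. Dendritic cell markers summed to 34.3 to 43.8, 10.7 to 35.0 and 27.5 to 47.2 CPM, with 2 of 10 lower and 0 higher in CP1 versus P1, and 3 lower and 1 higher in CP2 versus P1. Lymphocyte and natural killer cell markers summed to 44.9 to 61.8, 4.86 to 7.35 and 250 to 354 CPM, with 9 of 13 lower and 0 higher in CP1 versus P1, and 5 lower and 3 higher in CP2 versus P1. Epithelial markers summed to 9059 to 18490 CPM in P1, 711 to 1356 CPM in CP1 and 214 to 428 CPM in CP2, with 5 of 5 lower in both CP lines than in P1. Fibroblast markers summed to 3527 to 6667, 13300 to 20020 and 7203 to 8741 CPM, with 2 of 7 higher and 1 lower in CP1 versus P1, and 4 higher and 3 lower in CP2 versus P1. None of the markers in these lists had 0 counts over all tumours of a line. The part of these shifts in the results for the 10 genes was not tested.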

How the data were processed

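RNA from 10 orthograft tumours (3 P1, 3 CP1, 4 CP2) was sequenced. The deposited values are whole-number counts per Ensembl gene, not normalised, 1 table per tumour with 47069 IDs and 18800912 to 37180721 counts. The authors' tools, per the submitters' processing notes, included DESeq2 1.14.1, HTSeq 0.6.0, Bowtie2 and TopHat2 2.1.0, and the build was GRCm38.p3. Their settings and the use of strand are not given in the sources used here. GENCODE M21 gave symbols, coordinates and exon lengths for 46488 IDs, and 581 did not match. Promoters came from RefSeq (GRCm38.p6).

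Counts were tested in R 4.3.3 with edgeR 4.0.16 (limma 3.58.1). filterByExpr, at a minimum count of 10 and a minimum total of 15, left 17644 genes. Libraries were scaled by TMM, and all 10 tumours entered the same quasi-likelihood fit, with each line as a group. Calls needed an adjusted p (Benjamini-Hochberg) below 0.05. SEs were obtained from each log2 fold change and its F statistic. The fit was tested on simulated data. DESeq2 1.42.0, other scalings, no filter, fewer lines and left-out tumours were alternatives. With 1 tumour left in an arm, it is assumed to vary like the others. A fit on 4 tumours without the replicate block was added after seeing the data.

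The members and lists were chosen with earlier results of these data known. The rule for named genes took all 10 members, per list and comparison up to 2 called genes in each direction with a mean of at least 1 CPM in a line, the most abundant list member not called, Lyz1, and the 10 genes most like C1q and like Csf1. The text names fewer. Nothing in the labels says that every library came from a separate animal, so p-values measure only the spread between these samples, which may be technical. Part of the genotypes is not reported here.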

Additional observations from a re-analysis of the deposited data

Results flagged for a closer look

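Csf1, which encodes the ligand of the CSF1 receptor, changed from P1 by different amounts in the 2 CP lines. Its log2 rise over P1 was larger in CP2 than in CP1 by 0.368 ± 0.11 (SE), with an adjusted p of 0.023 in edgeR's quasi-likelihood test. All 4 CP2 tumours (84.1 to 96.4 CPM) lay above all 3 CP1 tumours (61.1 to 74.1 CPM). The call was lost without CP1 replicate 3 (adjusted p 0.0945) and without CP2 replicate 3 (0.0623). Each of the 10 genes was also examined for a single CP2 tumour far from the other 3, and 0 of the 10 had one by Dixon's 95% limit.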

How the results depend on the processing

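Over the 3 comparisons and all alternatives, 501 values of the 10 genes kept their direction and side of the threshold, 6 lost a call, 15 gained one and 38 changed sign, none of these called. Csf1 kept its calls against P1 in every setting run. Leaving out 1 tumour gave 2 to 3, 1 to 2 and 0 to 2 of the 10 genes called in CP1 versus P1, CP2 versus P1 and CP2 versus CP1. It gave 7 to 13, 10 to 11 and 5 to 9 other macrophage markers, 9 to 11, 11 to 15 and 8 to 13 complement genes, and 6886 to 8016, 8956 to 10210 and 6290 to 8704 of all genes. In CP1 versus P1, 1 of the 10 genes was called without P1 replicates 1 and 2 and 1 without CP1 replicates 2 and 3, and 4 other macrophage markers without P1 replicates 1 and 2. In CP2 versus P1, 2 of the 10 were called with library totals alone, with the 2 lines alone and without CP1 replicates 2 and 3, and 6 other macrophage markers without P1 replicates 1 and 2. In CP2 versus CP1, 2 of the 10 were called with DESeq2 and with the 2 lines alone, and 0 without CP1 replicates 2 and 3, where 4161 genes were called in all. The count of the 10 genes called in CP2 versus CP1 was also 0 without CP1 replicate 3 or without CP2 replicate 3. The cause of these shifts was not tested.

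Signs changed as follows. In CP1 versus P1, without CP1 replicates 2 and 3, Adgre1 was 0.138 and Csf1r 0.344, and without P1 replicates 1 and 2, Cd68 was -0.036 and Lyz2 -0.036. Leaving out 1 tumour gave -0.448 to 0.206 for Csf1r, -0.569 to 0.012 for C1qa and -0.218 to 0.363 for Lyz2. In CP2 versus P1, library totals alone moved the median of all genes by over 0.1, to 0.154, and gave Adgre1 0.133, Cd68 0.011, C1qa 0.02, C1qb 0.051 and C1qc 0.125. Leaving out 1 tumour gave -0.21 to 0.09 for Adgre1, -0.28 to 0.116 for Cd68, -0.328 to 0.031 for C1qa, -0.293 to 0.062 for C1qb and -0.236 to 0.171 for C1qc. In CP2 versus CP1, without CP1 replicates 2 and 3, Adgre1 was -0.167, Csf1r -0.159, C1qa -0.093, C1qb -0.004 and Lyz2 -0.209. Leaving out 1 tumour gave -0.02 to 0.62 for Csf1r, -0.113 to 0.455 for Mrc1, -0.146 to 0.436 for C1qa, -0.014 to 0.531 for C1qb, -0.001 to 0.511 for C1qc and -0.144 to 0.424 for Lyz2.

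Title numbers 19 and 21 occur in both P1 and CP2, and the deviations of same-numbered tumours correlated at -0.188 and -0.063. With so few pairs, these values cannot settle whether the numbers pair the tumours. With the replicate block on these 4 tumours, 4611 genes, 9 complement genes and 1 of the 10 genes were called and Adgre1 was 0.13. With no replicate block they were 5298, 9 and 1, and Adgre1 was 0.137. The 72 counts of Cd163 in P1 replicate 1, the deepest library, were the lowest of the 10 genes in any tumour.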
